A study of Mus musculus with 27 samples.

Results

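Pnpla2 encodes adipose triglyceride lipase, the enzyme that takes the first fatty acid off stored triglyceride. It is described here through DNA methylation at its locus on mouse chromosome 7. The locus was defined as mm10 positions 141445000 to 141465000, and every run of measured positions with gaps of at most 200 bp was taken. This gave 5 runs with 188 of the 937644 positions in the deposited table, of which 171 had a value in all 27 libraries. The gene was chosen on its level at 48 h between positions 141455481 and 141455673, so the 48 h values of that stretch are a description and carry no test. Whether the difference at 48 h ended at those borders, and whether the other 4 runs shared it, were the questions asked.

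The libraries were made by reduced representation bisulfite sequencing, which reads cytosine methylation in short fragments cut at CCGG sites, from C2C12 cells, a mouse myoblast line that forms myotubes in low serum. All groups share the same treatment: myoblasts were differentiated in 2% horse serum and then shocked for 2 h with 50% horse serum, which sets the cells' circadian clocks to one shared phase. The groups are the 9 times after the shock, 12, 18, 24, 30, 36, 42, 48, 54 and 60 h, with 3 libraries each, all from 1 cell line. The labels do not say whether replicates were separate cultures, so p-values measure the spread between these libraries, which may be technical. The table gives levels without read counts, so no interval from counts can be given and the read depth of a level is unknown. Library means over the 871894 positions measured in all 27 libraries lay between 11.4% and 12.7%, and between 1640 and 21925 positions were missing per library.

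Lipolysis runs in steps: Pnpla2 makes diacylglycerol, Lipe makes monoacylglycerol and Mgll releases the last fatty acid. Abhd5 activates Pnpla2 on the surface of lipid droplets, G0s2 and Hilpda inhibit it, and perilipins hold these proteins at or away from the droplet. In muscle the released fatty acids feed mitochondrial oxidation and act as signals for PPAR receptors, and loss of the lipase fills muscle with triglyceride. Gene starts rich in CpG are as a rule unmethylated in cells of all kinds.

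Gene positions are those of RefSeq on GRCm38.p6, which has the same coordinates as mm10. Pnpla2 lies at 141455188 to 141460743 on the plus strand. Below it lie Pidd1 (141438113 to 141447565, minus strand), which encodes a death domain protein of the p53 response, and Rplp2 (141447651 to 141451359, plus strand), a ribosomal stalk protein gene that holds the small nucleolar RNA gene Snora52 (141448803 to 141448936). Above it lie Cracr2b (141460875 to 141466613), a gene for a calcium channel regulator, and the long noncoding RNA gene Gm10575 (141461481 to 141467771, minus strand). The nearest genes outside are Slc25a22, a mitochondrial glutamate carrier gene, and Cd151, a tetraspanin gene. Exons and introns are not annotated here, so positions are given by their distance from the gene start.

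The starts of Pnpla2 and Rplp2 are shown because the measured CpGs can be placed in them. Each sequence, from RefSeq on GRCm38.p6, runs from 250 bases before the gene start to 50 bases after it on the plus strand, with every CG in capitals.
Pnpla2, chr7:141454938-141455237: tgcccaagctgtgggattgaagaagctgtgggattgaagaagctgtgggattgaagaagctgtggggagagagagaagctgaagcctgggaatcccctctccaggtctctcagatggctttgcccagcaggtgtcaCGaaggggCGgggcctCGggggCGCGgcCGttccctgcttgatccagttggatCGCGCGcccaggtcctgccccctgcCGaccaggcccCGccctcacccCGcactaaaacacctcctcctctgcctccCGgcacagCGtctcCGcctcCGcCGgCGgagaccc
Rplp2, chr7:141447401-141447700: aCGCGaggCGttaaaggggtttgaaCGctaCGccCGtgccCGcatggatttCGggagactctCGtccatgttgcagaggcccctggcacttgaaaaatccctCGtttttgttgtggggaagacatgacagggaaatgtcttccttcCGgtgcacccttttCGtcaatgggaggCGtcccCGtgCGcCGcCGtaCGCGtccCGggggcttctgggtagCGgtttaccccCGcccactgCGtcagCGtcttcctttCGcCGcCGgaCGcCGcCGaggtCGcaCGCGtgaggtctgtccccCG
The Pnpla2 window held 18 CG and 2 CCGG, and the Rplp2 window 34 CG and 3 CCGG. CCGG occurred in 52.8% of the 32851 start windows in the RefSeq table and CG in 94.6%; both motifs read the same on either strand, and a CG can lie within a CCGG. Of the 18 CG of the Pnpla2 window, the table held positions 141455226 and 141455229, the first of which falls in the last CCGG of the window. The Rplp2 window held 43 measured positions, counting both strands. None of the CpGs before the Pnpla2 start in this window had a level in the data. The stretch at 48 h begins 293 bp after the gene start, beyond the printed bases. Over all start windows, 99.98% of 248863 table positions fell on a C or G of a CG when counted from 1, against 56.2% when counted from 0, so coordinates are read here as counted from 1.

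At 48 h the stretch was methylated to 19.3% in replicate 1, 24.4% in replicate 2 and 12.8% in replicate 3. In the other 24 libraries it lay between 0% and 7.30% with a median of 1.13%, and 11 of them were at 0%. The 48 h libraries and the rest did not overlap: the highest library outside 48 h, replicate 1 of 12 h at 7.30%, was below the lowest at 48 h. The 48 h mean was 18.8% ± 5.82 (SD, n = 3) against 1.52% ± 1.90 (SD, n = 24), a difference of 17.3 points and a level 12.4-fold higher. Outside 48 h the time point means ran from 0.467% ± 0.808 at 18 h to 3.50% ± 3.66 at 12 h (SD, n = 3), and the neighbours in time stood at 1.02% ± 0.932 (42 h) and 0.501% ± 0.867 (54 h). At each of those 8 time points the libraries overlapped with libraries of the others. The stretch holds 14 positions over 193 bp, and its 48 h difference was the 42nd largest upward one of 18447 regions in the genome, runs of at least 3 positions cut the same way. Of these regions, 1.24% were higher at 48 h by 10 points or more, 0.0759% had all 3 libraries of 48 h above the other 24, and 0.0271% had an adjusted p under 0.05 (limma, Benjamini-Hochberg). The stretch was chosen for this difference, so nothing is read from its place in these 3 groups.

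**Figure D1:**
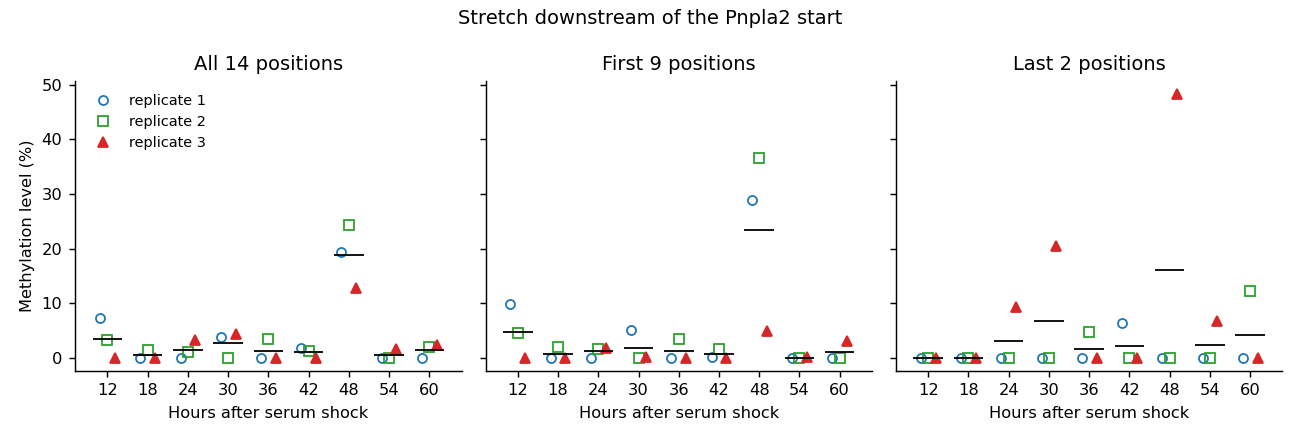
Methylation level in percent (vertical axis) against hours after serum shock, for the whole stretch of 14 positions, its first 9 positions and its last 2; each symbol is a library and each bar the mean of 3. At 48 h replicates 1 and 2 are high in the first 9 positions (28.9% and 36.6%) and replicate 3 in the last 2 (48.3%).

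The 3 libraries of 48 h did not share one profile along the stretch. At the first position, 141455481, replicates 1 and 2 stood at 37.3% and 57.8%, and replicate 3 at 7.94%. The other 24 libraries reached at most 3.82% there, so all 3 libraries of 48 h lay above them at this position. At the last position, 141455673, replicates 1 and 2 stood at 0% and replicate 3 at 51.9%. The profiles therefore crossed: replicates 1 and 2 were high at the end nearer the gene start and lower toward the far end, and replicate 3 was lowest within the first 9 positions and highest at the far end. Over the first 9 positions (141455481 to 141455560) the level was 28.9% in replicate 1, 36.6% in replicate 2 and 4.91% in replicate 3, against a range of 0% to 9.87% in the other 24 libraries. Replicate 3 lay within that range there, and 2 of the other libraries were above it. Over the last 2 positions (141455668 and 141455673) replicate 3 was at 48.3% and replicates 1 and 2 at 0%, and the other libraries ran from 0% to 20.4%. The middle 3 positions (141455600 to 141455631) stood at 3.44%, 3.92% and 12.6% in replicates 1 to 3, against 0% to 6.25% elsewhere. No one of these 3 portions, which were cut after the values were seen, had all 3 libraries of 48 h above the other 24. The separation over the whole stretch thus came mostly from different positions in different libraries, though at the first position all 3 lay above the rest. Adjacent positions had similar levels in places, as in replicate 1 of 48 h, which stood at 37.3%, 36.0% and 35.6% at the first 3 positions. Close positions can lie on the same reads, and whether the deposited levels were smoothed along the genome is not stated. The values have the form of smoothed levels. At the 8 positions from 141455226 to 141455294, replicates 1 and 2 of 60 h kept one ratio to each other throughout. They fell from 21.7% and 4.35% at the first of these to 3.26% and 0.652% at the last. The levels are therefore read here as smoothed, and the 14 positions are not 14 separate measurements.

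**Figure D2:**
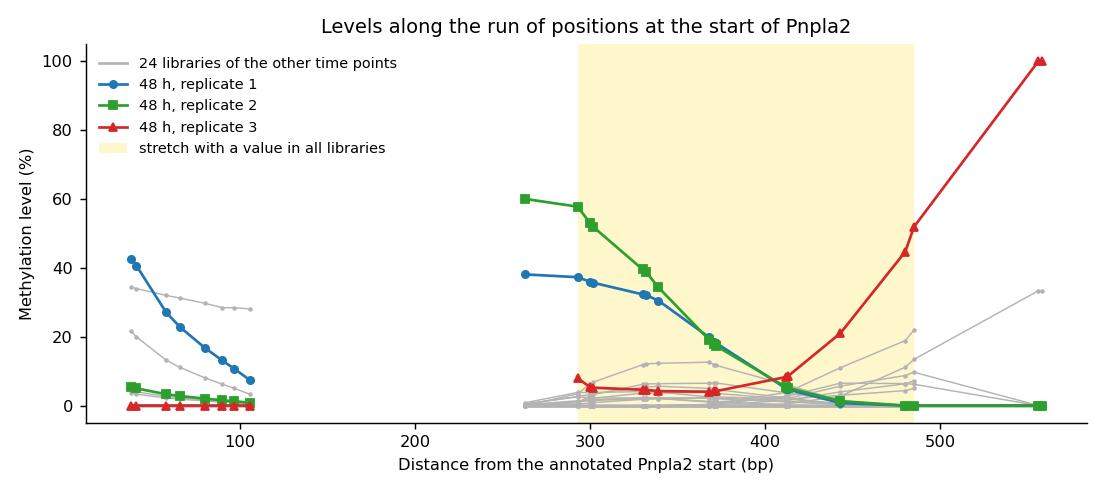
Methylation level in percent (vertical axis) against distance in bp from the annotated Pnpla2 start, for the 25 positions of the run at the gene start; coloured lines are the 3 libraries of 48 h, grey lines the other 24, lines break at gaps over 100 bp, and the shaded band is the stretch. Replicates 1 and 2 of 48 h are high before and at the start of the band, and replicate 3 goes from 7.94% at its first position to 51.9% at its last and is at 100% beyond it.

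In the levels as deposited, the difference at 48 h did not end at the borders of the stretch. The borders are where positions stop having a value in every library: 9 positions before and 2 after belong to the same run and lack a value in some libraries. The first position before the stretch, 141455451, lies 30 bp from it and was measured in 23 libraries. It stood at 38.1% in replicate 1 and 60.0% in replicate 2 of 48 h, had no value in replicate 3, and was at 0% to 0.826% in the 21 other libraries with a value. The first positions after it, 141455744 and 141455746, lie 71 bp and more away and were measured in 15 libraries. They stood at 100% in replicate 3 of 48 h, at 0% in replicates 1 and 2, at 33.3% in replicate 2 of 60 h and at 0% in the 11 other libraries with a value. Replicates 1 and 2 of 48 h were thus high on both sides of the near border, and replicate 3 on both sides of the far border. Since the levels are read as smoothed, values at close positions on either side of a border are not separate measurements. How far the difference itself reached cannot be told from them. Of the other libraries, replicate 3 of 30 h stood at 22.0% at the last position of the stretch and had no value beyond it, and replicate 3 of 24 h stood at 9.68% there and at 0% beyond.

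Nearer the gene start, 8 positions from 141455226 to 141455294 were measured in 21 libraries. Over these, replicate 1 of 48 h was at 22.6%, replicate 2 at 2.77% and replicate 3 at 0%. The highest library here was replicate 3 of 36 h at 30.8%, and replicate 1 of 60 h was at 11.1%, while 14 of the 18 other libraries with a value were at 0%. High levels within 106 bp of the Pnpla2 start were thus seen at 36, 48 and 60 h, in 1 library each. No position between the Rplp2 run and this one had a level in the data.

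The other 4 runs were not used to choose the gene, and their 48 h difference was tested in the fit across all 18447 regions. None had an adjusted p under 0.05 (limma; 0.0271% of all regions were called). An unadjusted p under 0.05 was found for 1 of the 4 and for 7.06% of all regions. The run at the adjoining ends of Pidd1 and Rplp2 (141447286 to 141447819, 63 positions with a value in all libraries) was little methylated. Its 48 h libraries stood at 4.54%, 5.11% and 2.23%, against 0% to 5.55% with a median of 1.67% in the other 24. The difference was 2.19 points (SE 0.850, adjusted p 0.564, unadjusted 0.0182), and 6 of the other 24 libraries lay above the lowest at 48 h.

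Inside Pnpla2, 4319 to 4715 bp from its start, a run of 20 positions (141459507 to 141459903) was highly methylated, at 77.3% ± 5.35 (SD over 27 libraries). It stood at 84.0%, 71.3% and 68.1% at 48 h, against 69.4% to 86.4% in the other libraries, so that replicate 3 was the lowest of 27; the 48 h mean differed by -3.25 points (SE 3.35, adjusted p 0.942). That difference was -8.01 points without replicate 1 of 48 h and -0.0718 without replicate 3. Within it the mean level was highest at 93.5% at 141459591 and lowest at 41.1% at 141459903. A run of 10 positions at 5226 to 5363 bp from the start, close to the gene end (141460414 to 141460551), was at 82.9% ± 5.09. Its 48 h libraries stood at 81.9%, 80.4% and 86.6%, inside the range of 68.7% to 90.2% of the others, with a difference of 0.117 points (SE 2.91, adjusted p 0.999) whose sign changed on the log-ratio (M-value) scale and when the library mean entered the model. The body and the start of the gene thus had opposite levels in every library, the start run being low and both inner runs high.

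Beyond the gene end, a run of 64 positions (141461687 to 141462155) within Cracr2b and Gm10575 was at 16.0% ± 2.62, with position means from 7.03% to 31.3%. Its 48 h libraries stood at 17.4%, 19.3% and 16.7%, against 10.1% to 20.8% elsewhere, and the difference was 2.03 points (SE 1.39, adjusted p 0.884), or 1.28 without replicate 2 of 48 h and 3.43 with medians over positions. Position by position, 0 of the 157 tested positions of the locus outside the stretch had an adjusted p under 0.05, and 44 had an unadjusted p under 0.05, 40 of them higher at 48 h (limma; 0.0349% of the 871894 positions in the genome were called, and 6.96% had an unadjusted p under 0.05). The unadjusted count was 16 on the M-value scale, 21 with the library mean in the model, and 16, 29 and 71 without replicates 1, 2 and 3 of 48 h. Close positions are not independent, and the 44 lay in 3 runs. They comprised 25 positions of the Rplp2 run, higher by 2.08 to 5.66 points, 15 of the Cracr2b run, higher by 4.37 to 4.98 points, and 4 of the inner Pnpla2 run, with differences of -8.20 to -5.60 points. The test of the 48 h difference between the stretch and another run would use the values that chose the stretch and was not made. As a description, 17.3 points at the stretch stood beside -3.25 to 2.19 points at the other 4 runs, or -8.01 to 3.06 points with any 1 library left out.

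**Figure D3:**
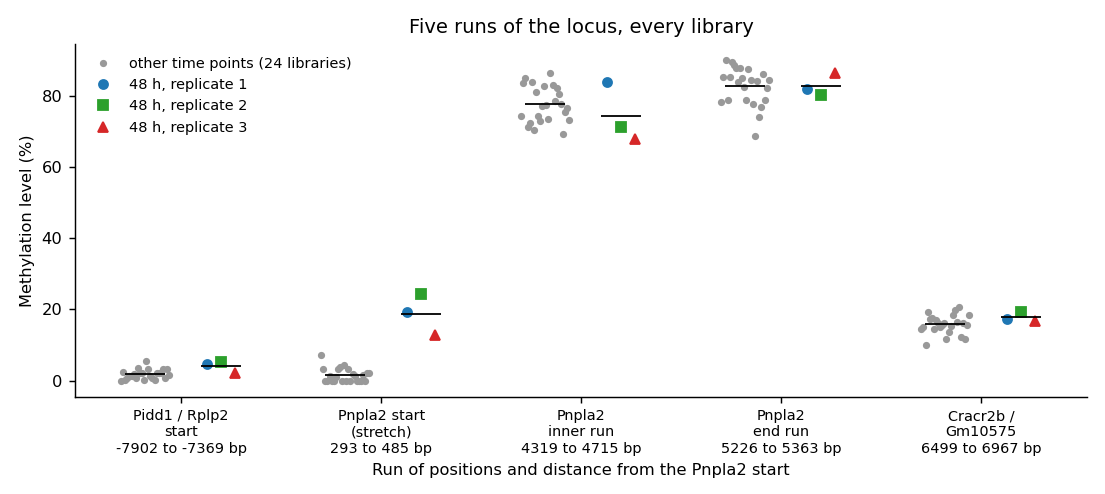
Methylation level in percent (vertical axis) of the 5 runs of the locus, ordered by distance in bp from the Pnpla2 start; grey points are the 24 libraries of the other time points, coloured symbols the 3 libraries of 48 h, and bars the group means. The groups are separate at the stretch (12.8% to 24.4% against at most 7.30%) and overlap at the other 4 runs.

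The 24 libraries of the other time points are the arm against which the stretch was chosen, so low and even levels there were favoured by the choice, and their pattern over time is a description with no test. At 24 h, one day before 48 h, the stretch stood at 0%, 1.02% and 3.20% in replicates 1 to 3. The 24 h mean differed from that of the other 7 time points by -0.132 points (SE 1.18), and the sign changed on the M-value scale (0.0507). Among the 8 time points the means spanned 3.03 points. The linear slope without 48 h was -1.40 points per 48 h (SE 1.17), or 0.217 when the positions missing in some libraries were included, and a 24 h cosine had an amplitude of 0.632 points.

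The other 4 runs were tested over the same 24 libraries for a difference of 24 h, any difference among time points, a linear slope and a 24 h cosine, and none was called in any of these tests (limma, smallest adjusted p 0.963). The smallest unadjusted p-values were 0.0478 for a slope of -6.28 points per 48 h (SE 3.01) at the run near the Pnpla2 end and 0.0480 for an amplitude of 1.91 points at the Cracr2b run. Each of the 4 tests called 0% of the 18447 regions, and at an unadjusted p under 0.05 stood 657 regions for 24 h, 771 for any difference, 924 for the slope and 749 for the cosine.

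Single libraries with a high level at a region that is otherwise unmethylated were common in the genome. Of 8826 regions with a median level under 5%, 25.7% had at least 1 library above 10%: 1328 regions had 1 such library, 457 had 2 and 482 had 3 or more. All 3 libraries of 48 h were above 10% in 4 of the 8826 regions, the stretch among them by its choice, and all 3 of another time point in 0 to 2. Replicate 3 of 48 h was above 10% in 411 of these regions, the most of any library, and the highest library mean, 12.7%. Replicates 1 and 2 of 48 h had 263 and 96, and the libraries of other time points had between 72 and 281. The part of these library differences in the levels at Pnpla2 was not tested. The 48 h difference at the stretch was 20.3 points without replicate 3, 17.0 points without replicate 1 and 14.5 points without replicate 2.

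Regions elsewhere whose levels followed those of the stretch were ranked by Pearson's r among 7340 regions with a mean level of 10% to 90%; no p is given, since they were picked from many. Over 27 libraries the highest were regions within Synpo2 (r = 0.734, chromosome 3, 123235998 to 123236153; 34.6% ± 4.33 at 48 h, n = 3, against 15.4% ± 6.57, n = 24), Rgs11 (r = 0.667; 93.1% against 55.6%) and Cks1brt (r = 0.656; 17.8% against 12.9%). Next came a region 127 bp from Ank1 (r = 0.617; 47.9% against 26.1%) and one within Col4a4 and Col4a3 (r = 0.608; 15.0% against 9.44%). All 5 were higher at 48 h, a direction that a ranking on these 27 values fixes. Over the 24 libraries without 48 h the highest were regions within Pop5 (r = 0.765), near Erich4 (r = 0.677), and within AU022754 (r = 0.672), Hhat (r = 0.670) and Cpne8 (r = 0.666). No region stood in both groups of 5. Levels of the stretch outside 48 h span few points and 11 libraries share the value 0, so these correlations rest on a small spread.

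The other genes of triglyceride storage and lipolysis were compared at windows from 1000 bp outside to 500 bp inside a gene end, of which 14754 in the genome held at least 3 positions. Of 72 listed genes other than Pnpla2, 50 had a window, with 51 windows in all. None of the 51 had an adjusted p under 0.05 for 48 h against the other time points (limma; 0.0203% of all windows were called). An unadjusted p under 0.05 was found for 3, or 5.88%, beside 7.28% of all windows. Their median difference was 0.230 points, beside 0.151 points over all windows, and 58.8% of them were above 0, beside 54.7% of all windows. Values at 48 h of the Pnpla2 start window are those of the stretch, whose 14 positions are the ones in that window.

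The 11 windows of partners and inhibitors had mean levels from 0.902% to 18.8% with a median of 2.99%. The activator gene Abhd5 stood at 2.34% ± 0.876 over 27 libraries, with 1.62%, 2.10% and 2.53% at 48 h and a difference of -0.285 points (SE 0.651). The inhibitor genes G0s2 (5.57% ± 2.91) and Hilpda (4.79% ± 2.57) differed by -0.912 points (SE 1.36) and 1.53 points (SE 1.64). Of the perilipins, Plin2 (2.82%), Plin3 (3.06%) and Plin5 (11.8%) differed by 2.03, 5.55 and 2.99 points. Plin3 stood at 2.51%, 4.42% and 17.1% in replicates 1 to 3 of 48 h, against 2.44% ± 2.56 in the other 24 libraries. That difference had an unadjusted p of 0.0130 and an adjusted p of 0.476, and it was 1.02 points without replicate 3 of 48 h. Over the 11 windows of partners and inhibitors 0 were called (limma; 1 with an unadjusted p under 0.05), and the median difference was 0.757 points.

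The monoacylglycerol lipase gene Mgll was at 13.9% ± 2.66 with a difference of 0.522 points (SE 1.63), and Pnpla3, which encodes a close relative of the lipase, at 8.07% ± 1.64 with -0.194 points (SE 0.984). Lipe, Plin1 and Plin4 had no window. None of the 7 lipase windows and none of the 10 synthesis windows was called (limma; 0 and 0 with an unadjusted p under 0.05). Of the other listed windows, the largest differences were those of Bscl2, the seipin gene of lipid droplet formation (41.4% ± 12.4 at 48 h against 32.0% ± 11.3; 9.40 points, SE 6.88), and Lpin1, a phosphatidate phosphatase gene (36.2% ± 9.73 against 42.1% ± 8.12; -5.95 points, SE 4.25). The Bscl2 difference was 2.27 points without replicate 1 of 48 h, and that of Lpin1 was -0.344 without replicate 3. Faf2, a gene for a ubiquitin-binding protein of lipid droplets (4.86 points), Fitm1, a lipid droplet gene of muscle (4.65), the beta-adrenergic receptor gene Adrb1 (-4.52) and Cpt1a, the carnitine palmitoyltransferase gene of fatty acid import into mitochondria (4.12), followed. The Fitm1 window lay at the end of that gene, not at its start. Without replicate 3 of 48 h the Faf2 difference was 0.574 points, without replicate 2 that of Fitm1 was 1.64, and without replicate 1 that of Cpt1a was -2.67. Of the 16 windows of signals and regulators and the 7 of fatty acid handling 0 were called, with 1 each at an unadjusted p under 0.05: Pde3b (2.36 points), the phosphodiesterase gene through which insulin holds lipolysis down, and Cpt1b (-2.27 points). Both were named after their values were seen.

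**Figure D4:**
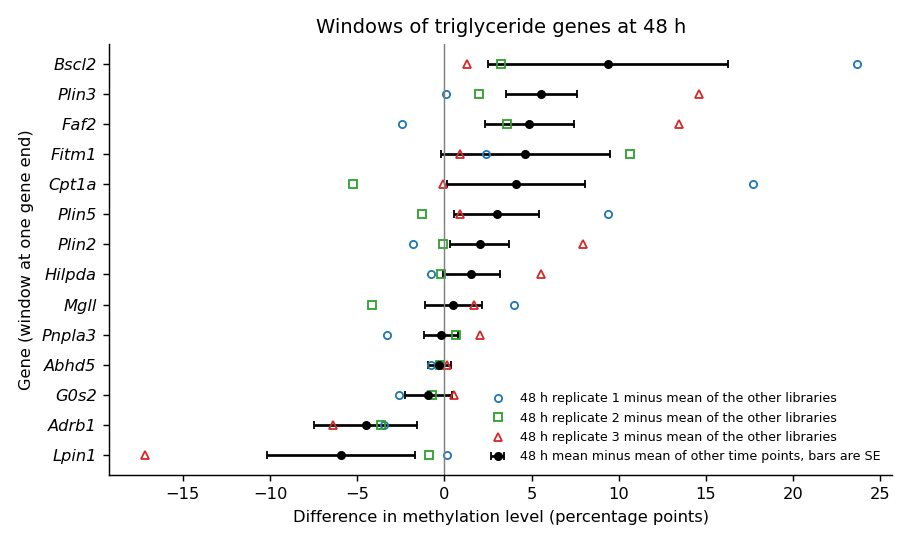
Difference in methylation level in percentage points (horizontal axis) between 48 h and the other time points for the 14 named windows of triglyceride genes; black points are means with the model's standard error and open symbols the 3 libraries of 48 h minus the mean of the other 24. Differences run from -5.95 points at Lpin1 to 9.40 points at Bscl2. The Fitm1 window lies at the end of its gene and the others at gene starts. At Plin3, Faf2, Plin2, Hilpda, G0s2, Abhd5 and Pnpla3 replicate 3 lies farthest to the right, and at the other windows it does not.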

How the data were processed

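Per the submitters' processing notes, the tools were Bismark 0.14.4 with Bowtie2, cutadapt 1.9.1 and Trim Galore 0.4.0, and the build was mm10. Settings, read filters and any smoothing are not stated there, though levels at the Pnpla2 start had the form of smoothed values. The deposited values are a fraction methylated for each position and library, in a single file without read counts, so the depth is unknown. Levels were multiplied to percent. Library columns were matched to samples by time and replicate number.

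Regions were runs of 3 or more positions measured in all 27 libraries and no more than 200 bp apart; a region's level is the mean over its positions. All tests ran across the genome in limma 3.58.1 (R 4.3.3) on percentage points, two-sided, with Benjamini-Hochberg adjustment over all regions, windows or positions and a threshold of 0.05. A model built for read counts could not be used. The 48 h contrast took time as a factor over 27 libraries; 4 further fits left out the 48 h libraries. The scripts were tested on simulated data. Tables and figures used Python 3.11.15, numpy 2.4.6, pandas 2.3.3 and matplotlib 3.10.9.

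The gene, the stretch and the gene lists were chosen with earlier results of these data known. Named were all genes of the interval and its nearest neighbours, the direct partners and related lipases, the 6 other listed windows with the largest absolute 48 h difference, and the 5 regions most correlated with the stretch, over 27 and over 24 libraries. Alternatives were the M-value scale, log2((p + 1)/(100 - p + 1)) of a level p in percent, a gap of 100 bp, all positions, averaged pairs of positions 1 bp apart, medians, a filter on level, the library mean as a covariate, the replicate number as a block, windows from 500 bp outside a gene, and leaving out each library.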

Additional observations from a re-analysis of the deposited data

How the results depend on the processing

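The 48 h difference of 17.3 points at the Pnpla2 stretch was positive in every setting run, a sign favoured by the choice of the stretch. It was 13.2 points with medians over positions, 15.7 with all positions and 18.8 with pairs 1 bp apart averaged. With 1 library left out it ran from 14.5 to 20.3 points. No other run of the locus and no named window crossed the threshold in any setting. The number of regions called at 48 h, 5, was 8 with pairs 1 bp apart averaged, 0 among regions of 10% to 90% (where the stretch is not tested), 1 with the library mean as a covariate, and 2 to 99 with 1 library left out. Leaving out replicate 2 of 48 h gave 99, replicate 3 of 48 h 9 and replicate 3 of 12 h 8; the count was 3 without each of 6 libraries (18 h replicate 2, 24 h replicate 1, 42 h replicate 2, 48 h replicate 1, 54 h replicate 2, 60 h replicate 2), and 2 without each of 14 (12 h replicates 1 and 2, 18 h replicates 1 and 3, 24 h replicates 2 and 3, 30 h replicates 1, 2 and 3, 36 h replicates 1 and 2, 42 h replicate 3, 54 h replicates 1 and 3). The causes were not tested.

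Windows called at 48 h, 3, were 0 on the M-value scale and 6, 10 and 113 without replicates 3, 1 and 2 of 48 h. Positions called, 304, were 25 on the M-value scale, 143 with the library mean as a covariate, and 796, 1820 and 6842 without replicates 3, 1 and 2 of 48 h. Of the tests without 48 h, which called 0 regions, the trend called 1 with medians over positions and 1 when replicate 2 of 54 h was left out. The 24 h contrast called 5 without its replicate 2, and the test of any difference called 1 or 2 regions without 5 libraries (18 h replicate 1, 24 h replicate 2, 30 h replicate 3, 36 h replicate 3, 54 h replicate 1). The rhythm called 0 regions in every leave-out.

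Signs of uncalled values changed for the Pnpla2 end run at 48 h (-0.0259 on the M-value scale, -0.969 with the library mean), the Rplp2 run at 24 h (-0.0209 with medians), the stretch at 24 h (0.0507 on the M-value scale), the Cracr2b run at 24 h (-0.608 with pairs averaged, -0.0521 with the library mean), the slope of the stretch (0.217 with all positions) and Mgll at 48 h (-0.222 with the library mean). With 1 library left out, signs also changed within -1.71 to 1.42 points for the Pnpla2 end run at 48 h, and at 24 h within -0.566 to 0.893 (Rplp2 run), -1.03 to 0.572 (stretch) and -0.459 to 0.843 (Cracr2b run). The slope of the Cracr2b run ran from -0.181 to 1.99. At 48 h the ranges were -2.67 to 8.82 for Cpt1a, -0.477 to 2.68 for Hilpda, -1.23 to 2.87 for Mgll, -0.942 to 3.93 for Plin2, -0.192 to 5.14 for Plin5 and -1.30 to 1.34 for Pnpla3.

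Replicate numbers recur at every time, but nothing says that they mark a shared culture. Deviations of same-numbered libraries correlated by 0.00489 on average over 108 pairs, with none over 0.1. Those of differently numbered libraries correlated by -0.00242 on average over 216 pairs. This second mean is close to fixed by the first, since deviations cancel within a time point, and adds no separate evidence. Whether the numbers pair the libraries is not settled by these values. With the replicate block 5 regions, 3 windows and 218 positions were called at 48 h. Of the 27 libraries, 18 correlated best with their own number. These choices are not independent and no share expected without pairing was computed, so this count does not settle the pairing either. Depth is unknown, so it cannot be said which levels rest on few reads.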
